A study of Mus musculus with 10 samples.

Results

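The 41 genes described here are cell cycle and DNA replication genes chosen by name from the 55385 identifiers of the EP300 count table: 18 that act in G1 and S phase or in DNA replication, 20 that act in G2 and mitosis, and 3 inhibitors of cyclin-dependent kinases (CDKs). RNA was sequenced from sorted liver hepatocytes of C57BL/6J 129SV mice in which Ep300, the gene for a histone acetyltransferase and transcriptional coactivator, was floxed (EP300f/f). All mice of both groups were given the DDC diet, which injures hepatocytes and bile ducts, and the pT3-cMet plasmid, which carries a receptor tyrosine kinase gene and was delivered to the liver by hydrodynamic tail vein injection (HTVi), and both groups are labelled as treated for 5 months. The EP300 KO group (2 libraries, genotype label EP300-/-) received AAV-TBG-Cre, an adeno-associated virus with Cre under the TBG promoter, which is active in hepatocytes, and the EP300 WT group (2 libraries) received AAV-TBG-GFP, so the deletion was aimed at hepatocytes. The labels give no age, mention pooled sequencing and name no animal for any library. The p-values therefore rest on the spread between libraries, part or all of which may be technical.

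Total counts per library ran from 17709799 to 18831671. Ep300 itself stood at 1184 and 1114 counts in the EP300 WT libraries and at 1274 and 1258 in the EP300 KO libraries, a rise of 0.28 on the log2 scale (edgeR quasi-likelihood test, adjusted p = 0.00498) whose call ended when EP300 WT replicate 2 was left out (adjusted p = 0.128). Loss of Ep300 RNA was thus not seen in the libraries labelled EP300 KO, a count over the whole gene does not report on a single exon, and all comparisons follow the labels. Xist, which silences the X chromosome in female cells, had 3 and 2 counts in the EP300 WT libraries and 2310 and 1411 in the EP300 KO libraries, while the Y-linked Ddx3y had 1079 and 1077 in the former and 954 and 813 in the latter. Genotype and this difference in sex-linked RNA cannot be told apart in this design. The 10 hepatocyte markers, such as albumin (Alb), summed to 113600 and 112900 CPM (counts brought to the same library total) in EP300 WT against 106100 and 108900 CPM in EP300 KO. Of these markers 6 rose and 2 fell, against 16.7% and 17.5% of all genes tested. Those that fell were the most abundant of the 10, Alb (means of 78220 CPM in EP300 WT and 72610 in EP300 KO) and Apoa1 (15720 and 9910). All 41 genes passed the filter on low counts, 3 of them (Nusap1, Cenpf and Bub1) with both EP300 KO libraries below its limit of 0.55 CPM. Aurkb lay below it in EP300 KO replicate 1 (0.463 CPM) and above it in replicate 2 (0.747 CPM). These genes were tested because of their EP300 WT counts. In these bulk samples, fewer cycling cells and less RNA per cell cannot be told apart.

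A dividing cell passes through G1, S, G2 and M phases. In G1, D-type cyclins with CDK4 and CDK6 phosphorylate the retinoblastoma protein RB, which releases E2F factors that switch on replication genes, and the MCM helicase is loaded onto origins. Later, the MuvB complex with B-MYB and FOXM1 switches on mitotic genes through a promoter element called the CHR (cell cycle genes homology region), and in resting cells MuvB with pocket proteins, the DREAM complex, represses them. Adult hepatocytes rarely divide but re-enter the cycle after injury, and many end with extra copies of the genome.

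The 20 listed G2/M genes were lower in the EP300 KO libraries without exception. The listed G1/S and replication genes were lower in part, and none of the 3 listed inhibitors was higher. Of the 20 G2/M genes, 20 fell, 18 of them at least 2-fold, with a median log2 fold change of -1.73. Without EP300 WT replicate 2, 14 of the 20 passed, and the calls over all genes went from 4851 to 2306 (to 2602 without EP300 WT replicate 1). Of the 18 G1/S and replication genes, 9 fell and 0 rose, 5 at least 2-fold, with a median of -0.35. Of the 3 inhibitors, 1 fell and 0 rose. Over all 14200 genes tested, 34.2% changed, 17.5% fell, 16.7% rose, 5.01% fell at least 2-fold, and the median log2 fold change was -0.0052. The split of the calls, 2485 lower and 2366 higher, became 3056 lower and 1846 higher with library size scaling, under which 20 G2/M and 12 G1/S genes fell. Both KO libraries lay below both WT libraries for 35 of the 41 genes, against 33.5% of all genes tested. The G1/S list holds genes that fell and genes near no change, and its median was -0.52 without EP300 KO replicate 2 and -0.77 without the members that share 10% or more of their exon bases with another gene, an alternative chosen after seeing the data.

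**Figure D1:**
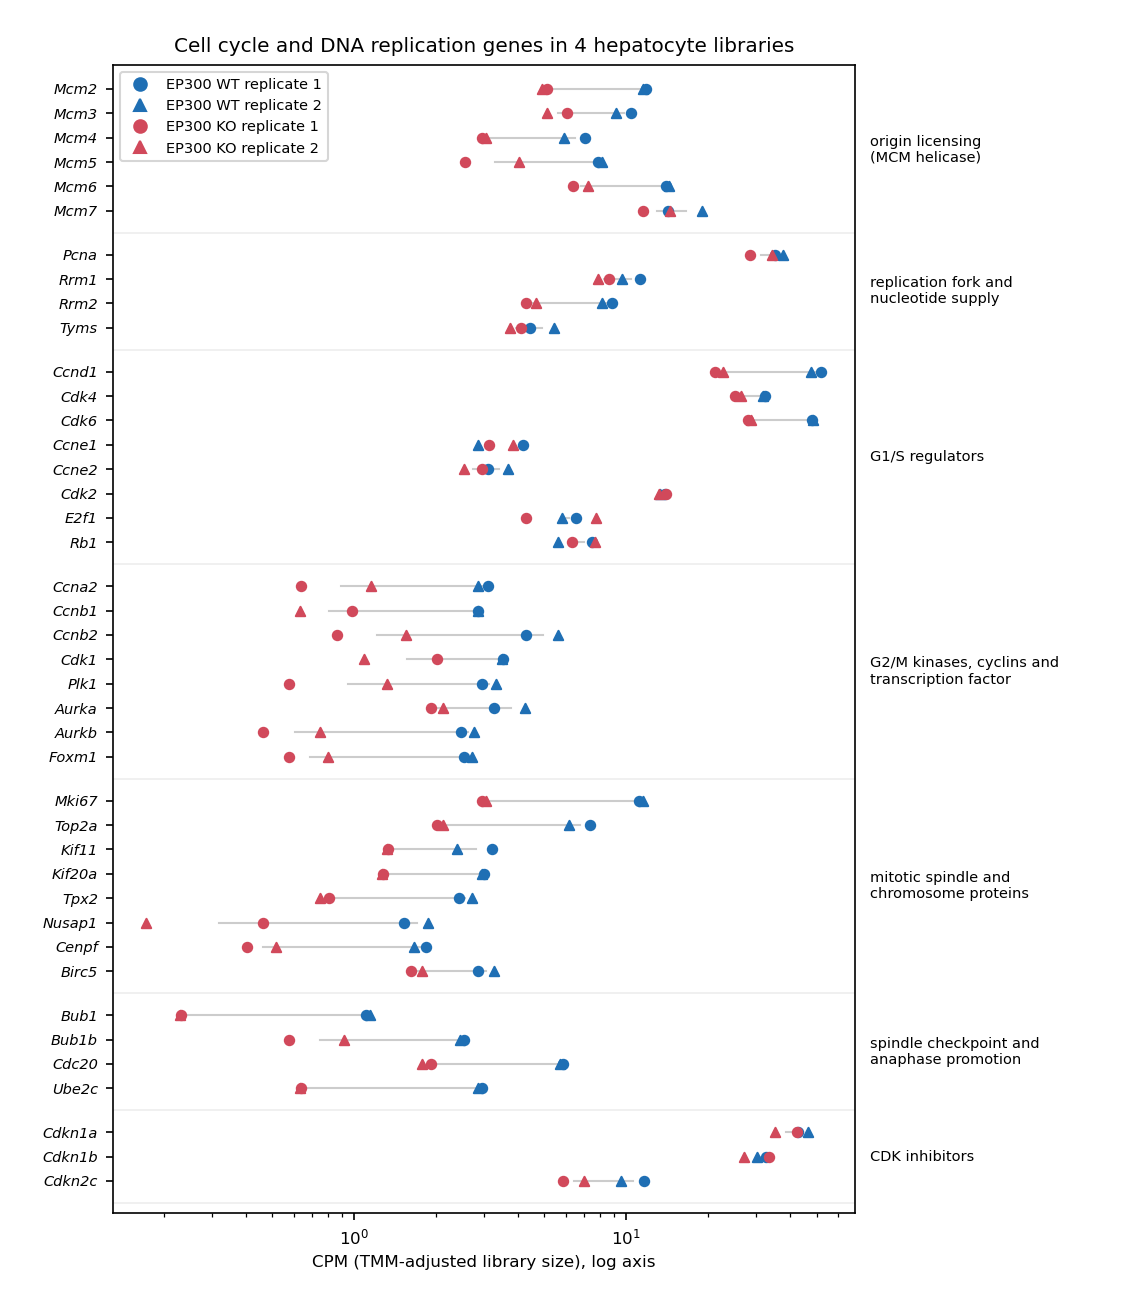
Level of each of the 41 genes in CPM (log axis) in the 2 EP300 WT libraries (blue) and the 2 EP300 KO libraries (red); circles are replicate 1, triangles replicate 2, and grey lines join the group means. In all 20 G2/M genes both red points lie left of both blue points, whereas in Cdk2, E2f1, Rb1, Ccne1, Mcm7 and Cdkn1b the groups overlap.

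Promoters from RefSeq (build GRCm38.p6, 250 bases before to 50 bases after the annotated start) were found for 32 of the 41 genes and searched on both strands for the CHR (TTTGAA or TTCGAA), the CCAAT box (CCAAT), which the factor NF-Y binds, and the E2F site (TTTCCCGC, TTTCGCGC, TTTGCCGC or TTTGGCGC). A CHR was present in 12 of 15 G2/M genes and in 2 of 14 G1/S and replication genes, against 21.7% of all 27025 genes with a promoter and 16.9% of the tested genes that have one. A CHR that begins within 40 bases of the start, a window chosen after the sites were seen, was present in 11 of 15 G2/M genes, in 0 of 14 G1/S genes and in 5.3% of all genes. An E2F site was present in 5 of 14 G1/S and replication genes, 4 of them MCM genes, in 1 of 15 G2/M genes (Cdk1), in 2.6% of all genes and in 4.4% of those tested. A CCAAT box was present in 13 of 15 G2/M genes, 9 of 14 G1/S genes, 41.1% of all genes and 42.7% of those tested. The shares were not tested against each other. The 3 inhibitors held 0 CHR and 0 E2F sites. The promoter of Ccnb2, the gene of a mitotic cyclin, is shown in full with its CHR sites and CCAAT boxes in capitals. It was chosen because it holds the arrangement of the G2/M group. That of Mcm5 is shown with E2F sites and CCAAT boxes in capitals, as an MCM promoter that holds both. In Mcm5 a pair of E2F sites overlaps, as in Mcm6. The sites of Mcm5 begin at -153 and -149 bases from the start. Those nearest the start in Mcm3, Mcm6 and Mcm7 begin at 19, -47 and 16 bases, and Mcm2 held no E2F site.
Ccnb2, chr9:70421505-70421804, minus strand: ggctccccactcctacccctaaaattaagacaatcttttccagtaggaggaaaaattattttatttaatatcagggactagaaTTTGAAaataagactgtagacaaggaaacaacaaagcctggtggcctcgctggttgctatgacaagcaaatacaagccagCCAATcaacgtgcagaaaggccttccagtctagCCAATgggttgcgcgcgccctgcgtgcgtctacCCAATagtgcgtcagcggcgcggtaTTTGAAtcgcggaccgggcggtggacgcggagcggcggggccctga
Mcm5, chr8:75109259-75109558, plus strand: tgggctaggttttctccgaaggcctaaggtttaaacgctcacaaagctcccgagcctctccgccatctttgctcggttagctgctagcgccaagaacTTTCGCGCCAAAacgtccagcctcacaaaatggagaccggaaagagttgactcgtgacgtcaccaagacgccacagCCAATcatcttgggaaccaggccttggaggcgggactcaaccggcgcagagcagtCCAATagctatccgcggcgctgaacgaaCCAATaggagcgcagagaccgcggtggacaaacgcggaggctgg

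The CHR nearest the start (capitals) is shown with up to 20 bases on each side for the 6 G2/M genes with a CHR that had the most counts in EP300 WT, each read on the strand that carries the motif. That of Mki67 begins 98 bases before the start and is the 1 nearest CHR of the G2/M genes outside the 40-base window.
Mki67, chr7:135716452-135716497, minus strand: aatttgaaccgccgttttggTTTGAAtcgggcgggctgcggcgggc
Top2a, chr11:99024187-99024232, plus strand: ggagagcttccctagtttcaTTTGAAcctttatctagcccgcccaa
Cdc20, chr4:118437336-118437381, minus strand: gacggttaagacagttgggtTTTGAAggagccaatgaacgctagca
Ccnb2, chr9:70421525-70421570, minus strand: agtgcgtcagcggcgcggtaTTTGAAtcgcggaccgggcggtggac
Aurka, chr2:172370521-172370558, minus strand: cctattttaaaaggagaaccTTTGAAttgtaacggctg
Cdk1, chr10:69352902-69352947, minus strand: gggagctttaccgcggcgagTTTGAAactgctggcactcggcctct
The E2F site nearest the start (capitals) is shown in the same way for 4 MCM genes.
Mcm3, chr1:20820266-20820313, plus strand: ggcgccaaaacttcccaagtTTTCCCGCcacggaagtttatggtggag
Mcm5, chr8:75109340-75109387, minus strand: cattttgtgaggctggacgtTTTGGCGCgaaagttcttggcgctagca
Mcm6, chr1:128359725-128359772, minus strand: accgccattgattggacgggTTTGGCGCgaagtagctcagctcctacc
Mcm7, chr5:138171840-138171887, minus strand: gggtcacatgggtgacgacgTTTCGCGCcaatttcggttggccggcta
Among the G2/M genes with a promoter, the 12 with a CHR had log2 fold changes of -2.25 to -0.90 and the 3 without (Ccnb1, Nusap1 and Birc5) -2.40 to -0.84, so the presence of these letters did not divide the falls within the group. A match describes the sequence and does not show that a factor binds there.

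**Figure D2:**
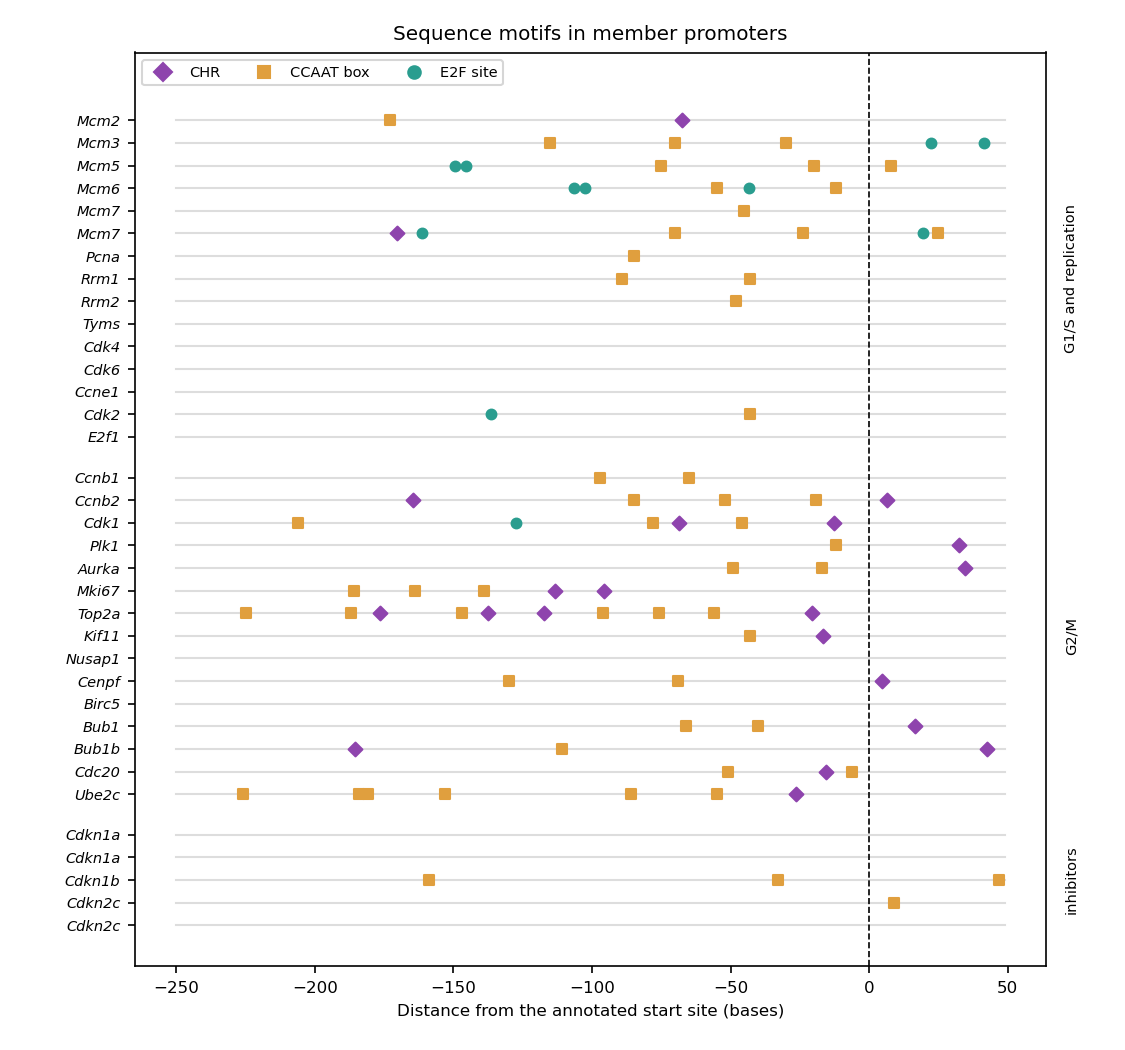
Positions of CHR (diamonds), CCAAT boxes (squares) and E2F sites (circles) in the promoters of the 32 genes that have one, by distance in bases from the annotated start; genes with more than 1 promoter have a line for each. CHR sites of G2/M genes cluster near the start (11 of 15 genes within 40 bases), and E2F sites lie mainly in MCM promoters.

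Of the 6 subunits of the MCM helicase, which unwinds DNA at replication forks, 5 fell (median log2 fold change -1.08). Mcm5 had 150 and 157 counts in EP300 WT against 44 and 70 in EP300 KO, a log2 change of -1.29 (SE 0.20, edgeR adjusted p = 0.000134). Mcm2 had 224 and 221 counts in EP300 WT against 88 and 85 in EP300 KO, a change of -1.22 (SE 0.15, edgeR adjusted p = 7.22e-06). Mcm6 had 265 and 277 counts against 110 and 126, and Mcm4 134 and 114 against 51 and 53, with changes of -1.06 and -1.11. In these genes every KO library held less than every WT library, as in 33.5% of all genes tested. Mcm3 fell less, from 198 and 176 to 105 and 89 counts (-0.81, SE 0.16). Mcm7 was the subunit that did not pass: it had 270 and 364 counts in EP300 WT against 199 and 251 in EP300 KO (-0.35, edgeR adjusted p = 0.0717), and its groups overlapped in CPM. Mcm7 shares 12.6% of its exon bases with other genes, and without EP300 KO replicate 2 it passed (-0.52, edgeR adjusted p = 0.000756).

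Genes of the replication fork and of nucleotide supply moved unequally. Rrm2, the small subunit of ribonucleotide reductase that is made in S phase, had 168 and 157 counts in EP300 WT against 74 and 81 in EP300 KO, and fell by 0.93 on the log2 scale (SE 0.16, edgeR adjusted p = 0.000368). Rrm1, the large subunit, had 213 and 186 counts against 149 and 137 and did not pass (-0.34, edgeR adjusted p = 0.0750). Pcna, the sliding clamp of DNA polymerases, was the most abundant member of this set, with 670 and 723 counts in EP300 WT against 491 and 596 in EP300 KO (-0.22, edgeR adjusted p = 0.0899). It stood at 86.0% of the WT level (95% counting interval 79.4% to 93.2%, counting error only). Tyms, thymidylate synthase, had 84 and 104 counts against 71 and 65 (-0.33, edgeR adjusted p = 0.240). In all 4 genes both KO libraries lay below both WT libraries, as in 33.5% of all genes tested, and 3 of the 4 did not pass. Pcna passed without EP300 KO replicate 2 (edgeR adjusted p = 0.00148) and both Pcna and Rrm1 passed with library size scaling (edgeR adjusted p = 0.0292 and 0.0349).

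Among the 8 G1/S regulators Ccnd1, Cdk6 and Cdk4 fell and the other 5 did not pass the test. Ccnd1, cyclin D1, a growth factor and Wnt target gene that drives hepatocytes into the cycle, had 988 and 915 counts in EP300 WT against 366 and 393 in EP300 KO, a log2 change of -1.19 (SE 0.09, edgeR adjusted p = 2.34e-08). This put cyclin D1 RNA at 44.0% of the WT level (95% counting interval 40.4% to 47.9%). Cdk6, a kinase partner of D cyclins, had 915 and 933 counts against 485 and 501 (-0.77, SE 0.08, edgeR adjusted p = 1.32e-06). Cdk4, the other partner, had 615 and 612 against 435 and 459 (-0.32, SE 0.08, edgeR adjusted p = 0.00842), and its call ended without EP300 WT replicate 1 (adjusted p = 0.115), without EP300 WT replicate 2 (adjusted p = 0.107) and with DESeq2 (adjusted p = 0.0649). Ccnd1 shares 23.4% and Cdk4 19.7% of its exon bases with a gene on the opposite strand, and the sources used here do not say whether reads were counted by strand. Cdk2, the kinase of cyclins E and A, had 263 and 255 counts in EP300 WT against 241 and 230 in EP300 KO, which is 100.3% of the WT level (95% counting interval 88.3% to 113.8%). Ccne1 (cyclin E1) had 79 and 55 counts against 54 and 67, or 99.6% (95% counting interval 77.2% to 128.3%), and Ccne2 (cyclin E2) 59 and 71 against 51 and 44, or 80.6% (95% counting interval 61.2% to 105.8%). E2f1, an activating E2F factor, had 124 and 112 counts in EP300 WT against 74 and 135 in EP300 KO, so the KO libraries lay on both sides of the WT ones. Rb1, the gene of RB, had 142 and 108 counts against 109 and 133 (0.09, edgeR adjusted p = 0.734). The other D cyclins, Ccnd2 (-0.23) and Ccnd3 (0.07), did not pass.

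All 8 of the mitotic kinases, cyclins and their transcription factor Foxm1 fell (median log2 fold change -1.77). Ccnb2, cyclin B2, whose promoter is shown above, had 81 and 108 counts in EP300 WT against 15 and 27 in EP300 KO (-2.02, SE 0.29, edgeR adjusted p = 4.93e-05). Ccnb1, cyclin B1, which with CDK1 triggers entry into mitosis, had 54 and 55 counts against 17 and 11 (-1.81, SE 0.33). Ccna2, cyclin A2 of S and G2 phase, had 59 and 55 counts against 11 and 20 (-1.73, SE 0.33), and shares 12.5% of its exon bases with another gene. The KO counts are small, and all 3 cyclins stood well below every WT library. Foxm1, the activator of mitotic genes, had 48 and 52 counts against 10 and 14 (-1.91, SE 0.34, edgeR adjusted p = 0.000400). Aurkb, the kinase that corrects chromosome attachment, had 47 and 53 counts against 8 and 13 (-2.10, SE 0.36), and Plk1, polo-like kinase 1, had 56 and 64 against 10 and 23 (-1.71, SE 0.34). Cdk1, the central mitotic kinase, fell less, with 67 and 67 counts in EP300 WT against 35 and 19 in EP300 KO (-1.17, SE 0.29, edgeR adjusted p = 0.00520). Aurka, a kinase of the spindle poles, had 62 and 82 counts against 33 and 37 (-0.90, SE 0.25, edgeR adjusted p = 0.0114). The calls of Cdk1 and Plk1 ended without EP300 WT replicate 2 (adjusted p = 0.0883 and 0.0590), as did that of Aurka (adjusted p = 0.176), and that of Cdk1 also without EP300 WT replicate 1 (adjusted p = 0.0730).

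The 8 spindle and chromosome proteins fell as well (median -1.71). Mki67, the gene of the proliferation antigen Ki-67 that coats mitotic chromosomes, was the best counted G2/M gene, with 212 and 221 counts in EP300 WT against 51 and 53 in EP300 KO (-1.91, SE 0.16, edgeR adjusted p = 1.81e-07). Its KO level was 26.5% of the WT level (95% counting interval 21.2% to 32.9%). Top2a, the topoisomerase that untangles chromosomes, had 140 and 119 counts against 35 and 37 (-1.70, SE 0.21, edgeR adjusted p = 1.23e-05). Both genes had KO replicates that differed by 2 counts, far less than the gap between groups. Nusap1, a spindle protein, had 29 and 36 counts against 8 and 3, which is 18.7% of the WT level (95% counting interval 8.88% to 35.6%). Cenpf, a kinetochore protein of G2 and mitosis, had 35 and 32 counts against 7 and 9, and Tpx2, which activates Aurora A, 46 and 52 against 14 and 13. Kif20a, a kinesin of cytokinesis, had 57 and 57 counts against 22 and 22 and shares 29.3% of its exon bases with another gene, and Kif11, the kinesin that pushes spindle poles apart, 61 and 46 against 23 and 23. Birc5, survivin, had the smallest fall of the G2/M genes, from 54 and 63 counts to 28 and 31 (-0.84, SE 0.26, edgeR adjusted p = 0.0210). The call of Birc5 ended when EP300 KO replicate 1, EP300 WT replicate 1 or EP300 WT replicate 2 was left out (adjusted p = 0.0683, 0.0774 and 0.178), that of Kif11 without EP300 WT replicate 1 (adjusted p = 0.159) and that of Nusap1 without EP300 WT replicate 2 (adjusted p = 0.0533).

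The 4 genes of the spindle checkpoint and of anaphase promotion had a median of -1.95. Cdc20, which activates the anaphase promoting complex, had 111 and 110 counts in EP300 WT against 33 and 31 in EP300 KO (-1.64, SE 0.22, edgeR adjusted p = 2.66e-05). Ube2c, the ubiquitin-conjugating enzyme of that complex, had 56 and 55 counts against 11 and 11 (-2.18, SE 0.33, edgeR adjusted p = 8.58e-05), with 22.8% of its exon bases shared with Tnnc2 on the opposite strand. The checkpoint kinase genes Bub1 (21 and 22 counts against 4 and 4) and Bub1b (48 and 47 against 10 and 16) stood at 20.5% and 30.2% of the WT level. For Bub1 the 95% counting interval ran from 8.33% to 44.1%, and its call ended without EP300 WT replicate 2 (adjusted p = 0.0519). A list of 15 other genes of the anaphase promoting complex, subunits together with the regulators Fzr1, Fbxo5 and Ube2s, had a median of -0.03, with 1 lower (Anapc4) and 1 higher (Anapc1). Over all genes tested 17.5% fell and 16.7% rose.

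The G2/M genes had lower counts than the G1/S genes, and the part of count level in the difference between the sides was not tested. Among members with a mean of at least 50 counts over the 4 libraries, the 5 G2/M genes (62 to 221 counts in EP300 WT) fell with a median of -1.70, and the 18 G1/S genes (55 to 988 counts), which all met this limit, had a median of -0.35. Some pairs of similar count, chosen after their values were seen, can be set side by side: Ccnb2 (81 and 108 counts) had 24.5% of the WT level in EP300 KO, whereas Tyms (84 and 104 counts) had 79.8% and Ccne1 (79 and 55 counts) 99.6%. Mki67, with 26.5%, had nearly the counts of Mcm2, with 42.9%. Other genes of the sides overlapped in fold size: Birc5, Aurka and Cdk1 stood at 55.6%, 53.6% and 44.4% of the WT level, above Mcm5 (40.9%) and Mcm2. Without Nusap1, Cenpf and Bub1, which lay below the filter limit in both KO libraries, 17 of 17 G2/M genes fell with a median of -1.71. These 17 still hold Aurkb, which lay below the limit in EP300 KO replicate 1. The median fold sizes of the sides are a description, and the difference between them was not tested.

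**Figure D3:**
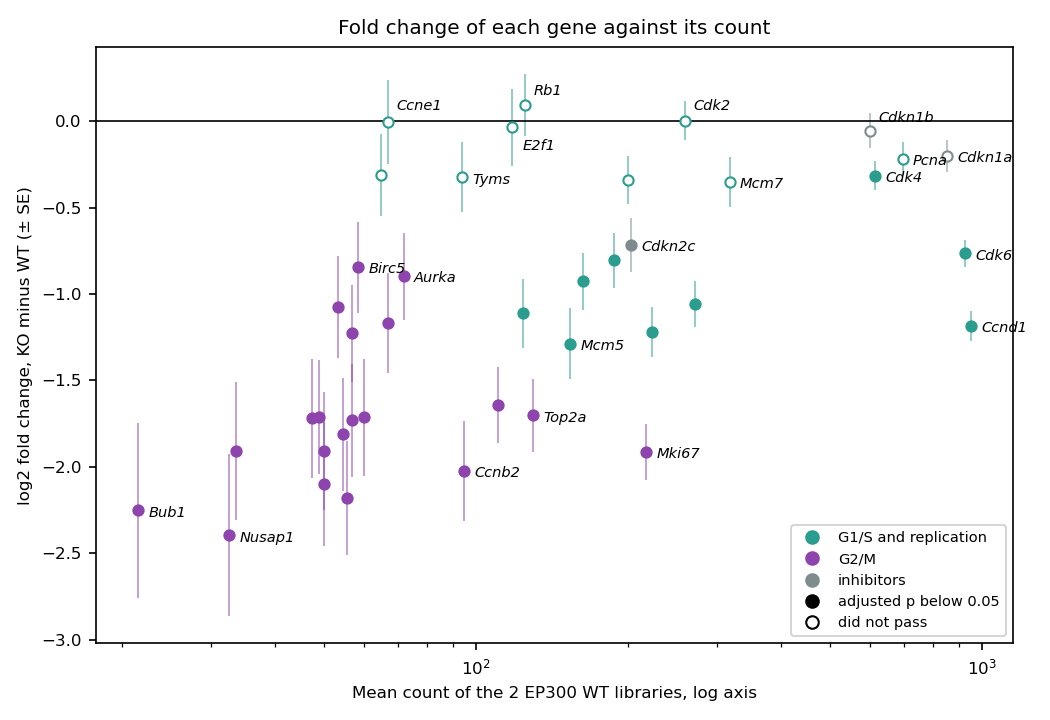
Log2 fold change of each gene (± SE from edgeR) against its mean count in the 2 EP300 WT libraries (log axis); green points are G1/S and replication genes, purple G2/M genes, grey inhibitors, and open points did not pass. At WT counts of 50 to 300 the purple points lie below most green ones, from Birc5 at -0.84 down to Ube2c at -2.18.

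Levels per exon length restate the same counts and allow sums over genes. Summed over its 20 genes, the G2/M side stood at 18.9 and 20.3 RPKM (CPM divided by exon length in kilobases) in EP300 WT against 5.88 and 6.73 RPKM in EP300 KO. The 18 G1/S and replication genes summed to 66.7 and 65.9 RPKM in EP300 WT against 43.54 and 49.02 RPKM in EP300 KO. The ratio of the G2/M sum to the G1/S sum was therefore 0.283 and 0.308 in EP300 WT against 0.135 and 0.137 in EP300 KO. Against the MCM genes alone, which fell themselves, the ratio was 1.29 and 1.34 in EP300 WT against 0.756 and 0.771 in EP300 KO. In both ratios the EP300 KO libraries lay below the EP300 WT libraries, an order that 33.5% of all single genes tested also had. By level per length in EP300 WT, Pcna (15.2 RPKM), Cdkn1a (12.5 RPKM), Ccnd1 (10.6 RPKM) and Cdk4 (9.88 RPKM) were the most abundant members, and Cenpf (0.114 RPKM) and Bub1 (0.258 RPKM) the least.

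**Figure D4:**
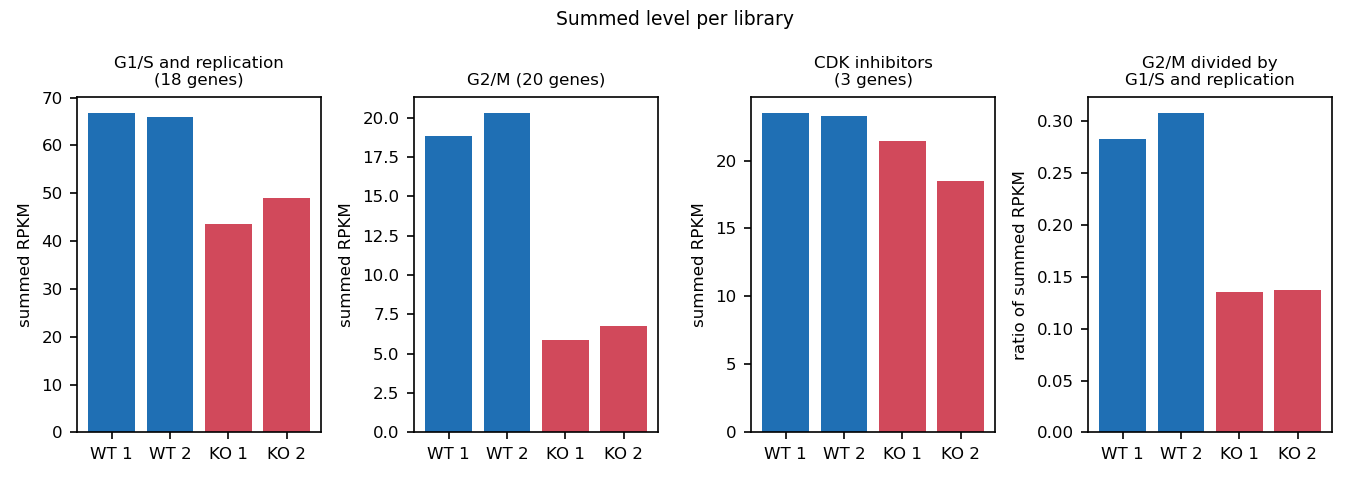
Summed RPKM per library of the 18 G1/S and replication genes, the 20 G2/M genes and the 3 CDK inhibitors, and the ratio of the G2/M to the G1/S sum; blue bars are EP300 WT, red bars EP300 KO, 1 bar per library. The ratio is 0.283 and 0.308 in the WT libraries and 0.135 and 0.137 in the KO libraries.

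Of the inhibitors, Cdkn2c fell and Cdkn1a and Cdkn1b did not pass the test. Cdkn1a, which encodes p21, a p53 target that restrains hepatocyte division after injury, had 811 and 893 counts in EP300 WT against 730 and 614 in EP300 KO (-0.20, SE 0.09, edgeR adjusted p = 0.103). Its level was 87.0% of WT (95% counting interval 80.9% to 93.5%), and it passed without EP300 KO replicate 1 (-0.33, edgeR adjusted p = 0.00129) and with library size scaling (edgeR adjusted p = 0.0318). Cdkn1b, which encodes p27, an inhibitor of resting cells, had 617 and 582 counts against 578 and 469, or 96.3% of WT (95% counting interval 88.5% to 104.7%), and its groups overlapped. Cdkn2c, which encodes p18, an inhibitor of CDK4 and CDK6 and an E2F target, had 220 and 184 counts in EP300 WT against 101 and 122 in EP300 KO and fell by 0.72 (SE 0.16, edgeR adjusted p = 0.00207), a call that ended without EP300 WT replicate 1 (adjusted p = 0.0814). Summed per length, the 3 inhibitors stood at 23.5 and 23.3 RPKM in EP300 WT against 21.4 and 18.5 RPKM in EP300 KO. Their sum was 1.25 and 1.15 times the G2/M sum in EP300 WT and 3.64 and 2.74 times that sum in EP300 KO.

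Of 182 other genes of the pathway, 170 were tested, 56 fell and 12 rose (median -0.26), against 17.5% lower and 16.7% higher over all genes tested. That share is the one to read each list below against. The mitotic lists held most of the falls. Of 27 genes of spindle motors, checkpoint and cytokinesis, 24 were tested and 21 fell (median -1.72), with Pbk, a mitotic kinase, at -2.63 (25 and 24 counts in EP300 WT, 3 and 4 in EP300 KO) and Ect2, the exchange factor that starts cytokinesis, at -2.59 (128 and 159 counts against 27 and 16). Of 11 genes of condensin, cohesin release and separase, 8 fell and 1 rose, led by Esco2, the cohesin acetyltransferase of S phase (60 and 51 counts against 6 and 8; -2.83), and Cdca5, sororin (-2.02). Of 21 kinetochore and centromere genes, 17 were tested and 9 fell, among them Knl1 (-2.05) and Sgo2a (-2.09), of which the latter shares 35.04% of its exon bases with another gene. The calls of Knl1, Sgo2a and Cdca5 rest on few counts and ended when either WT replicate was left out (adjusted p = 0.0670 to 0.150), those of Sgo2a and Cdca5 also without EP300 KO replicate 1 (adjusted p = 0.217 and 0.112), and that of Knl1 without EP300 KO replicate 2 (adjusted p = 0.0563).

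The replication and E2F lists had medians nearer to 0, from -0.32 to 0.07, and called shares near or below that of all genes (34.2%). Of 21 genes of DNA polymerases, clamp loader and lagging strand synthesis, 20 were tested and 2 fell, the DNA ligase Lig1 (-0.88) and the polymerase subunit Pole (-0.83), with a list median of -0.32. Of 11 E2F and pocket protein genes, the pocket protein gene Rbl1 fell (-0.91) and its relative Rbl2 rose (0.45), with 21.0% of the exon bases of Rbl2 shared with other genes. Of 6 genes of MuvB and B-MYB, Lin52 rose (0.52) and 0 fell. Of 12 genes of nucleotide synthesis, 2 rose and 2 fell, with Paics at 0.62 and Dck at -0.57. Of 21 genes of origin recognition and firing, 19 were tested, 4 fell and 2 rose. Cdc6, which loads MCM onto origins, fell from 18 and 24 counts to 10 and 5 (-1.33, edgeR adjusted p = 0.0403). With either WT replicate left out, the calls of Cdc6, Pole, Dck and Lin52 ended (adjusted p = 0.0804 to 0.286), Cdc6 also without EP300 KO replicate 2 (adjusted p = 0.263) and Pole without EP300 KO replicate 1 (adjusted p = 0.149). Those of Rbl2 and Anapc4 ended without EP300 WT replicate 1 (adjusted p = 0.0560 and 0.0728) and those of Rbl1, Anapc1, Cdkn3 and Bbc3 without EP300 WT replicate 2 (adjusted p = 0.0873, 0.101, 0.114 and 0.103). Mcm10, which joins the helicase to the replication fork, went the other way, with 192 and 183 counts in EP300 WT against 938 and 832 in EP300 KO (2.38, SE 0.10, edgeR adjusted p = 3.46e-11).

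Further regulators were mixed. Of 14 other cyclin, CDK and CDC25 genes, 13 were tested, 3 fell and 1 rose, with the stress-responsive cyclin gene Ccng2 at -0.60 and Ccnf, cyclin F, at 0.71. Of 5 other CDK inhibitor genes, 4 were tested and 3 fell. Cdkn2b, which encodes p15, fell from 53 and 57 counts to 7 and 16 (-2.11, SE 0.36, edgeR adjusted p = 0.000286), and Cdkn3, a phosphatase gene, from 20 and 29 to 4 and 7 (-1.99). Of 18 p53 targets besides Cdkn1a, 3 rose and 2 fell (median -0.04), among them Btg2, an antiproliferative gene, from 6955 and 6845 counts to 2951 and 3122 (-1.04, SE 0.06), and Bbc3, an apoptosis gene (-0.63).

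**Figure D5:**
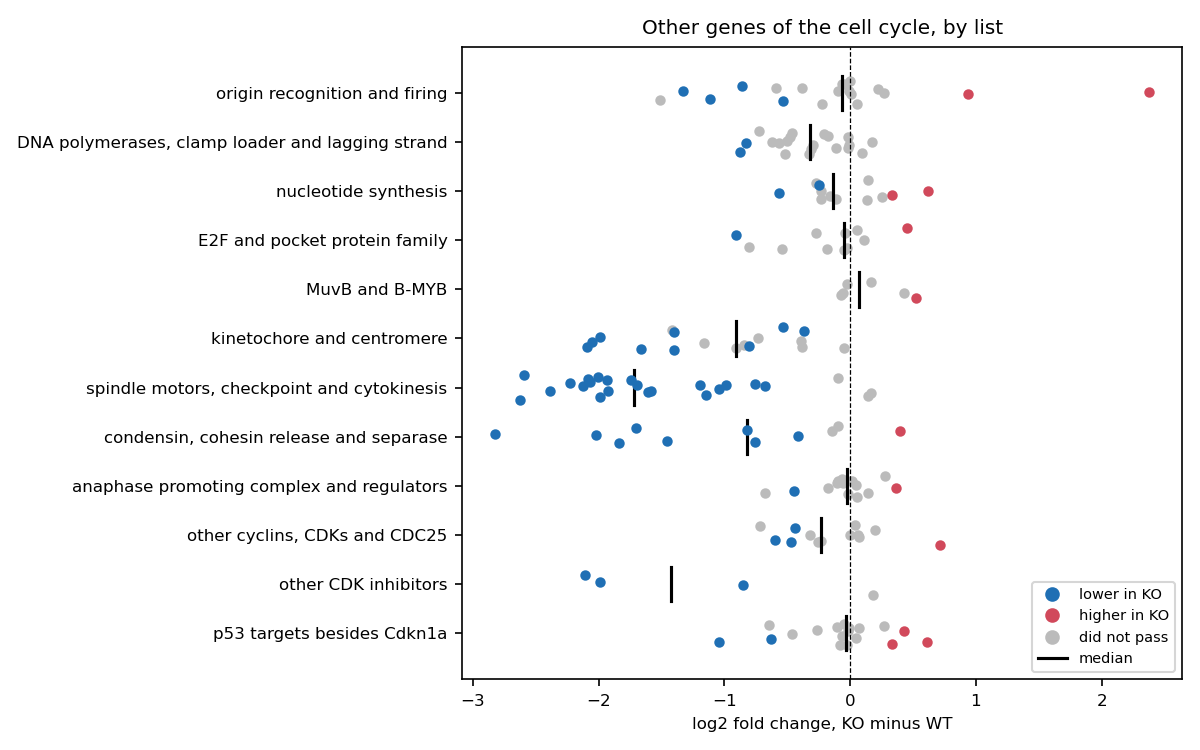
Log2 fold change, KO minus WT, of the 170 tested genes of 12 further cell cycle lists; blue points fell, red points rose, grey points did not pass, and black bars are list medians. The spindle list has its median at -1.72, whereas the lists of the anaphase promoting complex with its regulators and of MuvB lie near 0 (-0.03 and 0.07), and Mcm10 stands alone at 2.38.

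Markers of other cell types are given because cells other than hepatocytes can also divide, and their counts are to be read against the 17.5% of all genes that fell and the 16.7% that rose. Of 10 neutrophil markers, 6 were tested and 4 fell, with sums of 15.8 and 17.0 CPM in EP300 WT against 7.87 and 5.63 CPM in EP300 KO. Mpo, a granule gene of dividing neutrophil precursors, had 26 and 25 counts against 0 and 5, and Ngp, a granule gene of a later precursor stage, 67 and 83 against 10 and 9. S100a9 and Ltf fell as well, S100a8 and Cxcr2 did not pass, and Retnlg, which was not tested, had 4 and 9 counts against 20 and 9. Of 10 endothelial markers 6 fell (411.4 to 426.1 CPM in EP300 WT, 314.2 to 356.9 in EP300 KO), and of 10 stellate and fibroblast markers 6 fell (296 to 302.7 CPM and 188.1 to 195.2). Most of the difference in the stellate sum was Reln, with a mean of 115.9 CPM in EP300 WT against 31.9 in EP300 KO. Dcn, Col1a2, Lrat and Des did not pass. Of 8 cholangiocyte markers, 6 were tested and 3 fell (178.3 to 180.8 CPM and 110.8 to 112.9), the largest fall being Tff3, while the duct keratin gene Krt19 had 14 and 9 counts against 9 and 13. Of 10 macrophage markers 3 rose and 2 fell (767.2 to 773.5 CPM and 708.8 to 709.4). Marco rose from a mean of 5.73 CPM in EP300 WT to 34.45 in EP300 KO, and Cd68 and Timd4 rose as well. Cd5l fell from a mean of 254.3 CPM in EP300 WT to 157.1 in EP300 KO, and C1qa fell as well. Of 10 erythroid markers 5 were tested and 2 rose (14.2 to 15.2 CPM and 54.5 to 59.0). Most of the erythroid sum in EP300 KO was Alas2, with a mean of 6.28 CPM in EP300 WT against 45.4 in EP300 KO. Klf1 rose as well (2.04 against 4.76 CPM), while the globin genes Hba-a1 and Hbb-bs and the receptor gene Epor did not pass. The 10 T and B lymphocyte markers summed to 1.79 and 2.24 CPM in EP300 WT against 1.51 and 2.24 in EP300 KO, with 1 tested, and Cd3e, a T cell receptor component, had 3 and 1 counts in each group. The part of these cells in the falls of the cell cycle genes was not tested.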

How the data were processed

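Raw read counts per gene were deposited by the authors as 1 table for the EP300 experiment. Per the submitters' processing notes the tools were STAR, HTSeq and DESeq2 and the build mm10, without the step each served, and the annotation and strand setting of the counting are not given in the sources used here. Besides the 4 libraries, 4 columns of the table matched none of the samples and were not used, and the tables of the diet experiment were not used here. The labels name perfusion of the liver, sorting of its cells by flow cytometry and a TruSeq RNA kit.

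Of 55385 identifiers, 55144 matched a symbol in GENCODE M21, which is on the same build and gave exon lengths and overlaps. Counts of the 4 libraries were tested with edgeR 4.0.16 in R 4.3.3 by its quasi-likelihood F test, with TMM scaling, a low-count filter (filterByExpr, minimum count 10) and a model of group alone, which left 2 residual degrees of freedom, and p-values were adjusted by Benjamini-Hochberg over all 14200 genes tested, with a threshold of 0.05. The SE of a log2 fold change is its size over the root of the F statistic. CPM are counts scaled to a common TMM-adjusted library size, RPKM are CPM per kilobase of merged exons, and levels as a percentage of WT are ratios of summed counts, scaled by library size, with exact binomial 95% intervals, which cover counting error only. Libraries of a label differed beyond sampling noise (chi-square per degree of freedom 5.50 in EP300 KO and 2.60 in EP300 WT), so none were merged for the test. The percentages of WT do sum the libraries of a group, and their intervals leave this spread out.

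Members, lists and alternatives were chosen with earlier results of these data known. All members are named, and for each other pathway list the 2 passing genes with the largest change whose groups did not overlap, with Ep300 and sex-linked RNAs. Other genes were named after their values were seen: Ccnd2, Ccnd3, single markers of other cell types, neighbours of Mcm10 and regulators of the anaphase promoting complex. Alternatives were other scalings and filters, DESeq2 1.42.0, limma-voom (limma 3.58.1), the 20 most abundant genes left out, a 1.5-fold threshold, a block for the replicate number, and leaving out single libraries. The test was tried on simulated counts first.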

Additional observations from a re-analysis of the deposited data

How the results depend on the processing

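All G2/M members kept a negative fold change in every alternative that tested them. With the replicate number as a block, 33 members fell, 11 of them G1/S and 20 G2/M, and 5190 genes changed; Mcm7, Pcna and Cdkn1a then passed (adjusted p = 0.0164, 0.0398 and 0.0408). The labels do not say what a number stands for, and deviations of same-numbered libraries had a correlation of -0.00075 across genes. With a library left out, 23 to 32 members fell, 8 to 11 of them G1/S and 14 to 20 G2/M, the G1/S median was -0.52 to -0.37, the G2/M median -1.89 to -1.67, and 2306 to 5154 genes changed in all (2602 without EP300 WT replicate 1 and 2306 without EP300 WT replicate 2). Without a filter 2703 genes changed, with 8 G1/S and 15 G2/M members lower. With a 1.5-fold threshold 991 changed, with 5 G1/S and 15 G2/M members lower. With DESeq2 3270 changed, with 8 G1/S and 17 G2/M members lower. A mean of at least 50 counts left 26 members, of which 15 fell, 5 of them G2/M, because fewer were tested. With library size scaling, which moved the median of all genes to -0.0715, the medians were -0.41 (G1/S) and -1.79 (G2/M), and with limma-voom the G2/M median was -1.78. Without members that share 10% or more of their exon bases, the G1/S median was -0.77. Of the 30 members that fell, 17 did so in every alternative that tested them. Among these 17, Ccna2, Ccnb1, Aurkb, Foxm1, Tpx2, Cenpf, Bub1b and Ube2c were not tested with the mean count limit. DESeq2 ended the calls of Cdk4, Aurka, Kif11 and Birc5 (adjusted p = 0.0649 to 0.137), and omitting the filter those of Cdk4, Cdk1, Plk1, Aurka, Kif11, Birc5 and Cdkn2c (adjusted p = 0.0547 to 0.0840). Signs near no change reversed in Cdk2 (-0.063 with library size scaling, -0.0135 with upper quartile scaling, -0.0047 with the mean count limit, -0.024 to 0.047 with a library left out) and Ccne1 (0.012 with limma-voom, 0.0048 without a filter, 0.00 with the block, -0.24 to 0.29 with a library left out). With a library left out they also reversed in E2f1 (-0.52 to 0.34), Rb1 (-0.088 to 0.319), Cdkn1b (-0.21 to 0.098) and Ccnd3 (-0.0076 to 0.16). The cause of these shifts was not tested. Depth limits the G2/M genes most, whose KO counts ran from 3 to 53.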

Other observations

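Mcm10 (chromosome 2, 4989714 to 5012791, mm10, GENCODE M21) rose while 5 of the 6 MCM helicase genes fell and Mcm7 did not pass. Its level was 1.28 ± 0.06 RPKM (SD, n = 2) in EP300 WT against 6.64 ± 0.59 RPKM in EP300 KO, which is above the level of each MCM helicase gene in EP300 KO. None of its exon bases overlaps another gene. The nearest tested gene, Optn, lies 7851 bases away and had 1286 and 1248 counts in EP300 WT against 1397 and 1497 in EP300 KO, and it rose too (0.33, edgeR adjusted p = 0.00116). Gm13194, 47230 bases away, also rose (1.49, edgeR adjusted p = 0.0114), and Gm13192 and 4930551O13Rik did not pass.

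The CHR was also unevenly spread over the other pathway lists. A CHR within 40 bases of the start was present in 17 of 25 promoters of spindle, checkpoint and cytokinesis genes, in 8 of 19 of kinetochore and centromere genes and in 5 of 9 of condensin, cohesin release and separase genes. It was present in 4 of 16 of origin recognition and firing genes, 3 of 9 of E2F and pocket protein genes, 3 of 9 of other cyclin, CDK and CDC25 genes and 1 of 5 of MuvB and B-MYB genes. For the anaphase promoting complex and its regulators it was 1 of 14, for p53 targets 1 of 14, for polymerases and clamp loader 0 of 18, for nucleotide synthesis 0 of 10 and for other CDK inhibitors 0 of 4, against 5.3% of all genes. Over the whole promoter, a CHR was held by 26 of 49 other pathway genes that fell, 35 of 92 that were tested and did not fall and 4 of 11 that were not tested, against 21.7% of all genes.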
